A study of Homo sapiens and Mus musculus with 81 samples.

Results

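RDH10 and 7 further genes of retinoid metabolism were followed on oligonucleotide arrays of human and mouse liver cells treated with siRNAs. The members are RDH10, RDH11, RBP4, STRA6, LRAT, ALDH1A1, ALDH1A2 and ALDH1A3, found by gene symbol, with letter case ignored for mouse. All 8 members were on both array designs, 8 of 17836 named human genes and 8 of 21931 named mouse genes, through 12 human and 10 mouse probe sets. Each gene is given by its brightest probe set. RDH10 was selected on its low level with the siRNA Apob-Mm2 relative to mock in HUH7 and PLC/PRF/5, so its values there are a description with no test, and so are those of the other members in that contrast.

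The human lines HUH7 and PLC/PRF/5 derive from liver cancers, and the mouse line Hepa1-6 from a hepatoma. On 32 HUH7 and 24 PLC/PRF/5 arrays, cells had received the siRNA RAD18, Apob-Mm1, Apob-Mm2, APOB-Hs4, APOB-Hs3, APOB-Hs2 or APOB-Hs1, each at 10 nM in a lipid transfection reagent (Lipofectamine RNAiMAX), or a mock transfection. The labels name RAD18 and, for the others, apolipoprotein B, the main protein of liver-made lipoproteins, as the target. On 16 Hepa1-6 arrays the treatments were mock and, at the same dose, APOB-Hs1, APOB-Hs3 or APOB-Hs4. Cells were collected at 6, 12, 24 and 48 h (PLC/PRF/5 at 6, 12 and 48 h). The 9 liver arrays came from mice given 3 mg/kg of APOB-Hs1, APOB-Hs3 or APOB-Hs4 in a lipid nanoparticle, 3 livers each, taken at 3 d. All livers carried an siRNA, no untreated liver was among the samples, and the labels do not give strain or age. Each treatment of a line had 1 array at each time, so times stood in for replicates. Nothing in the labels says that arrays of a line came from separate cultures, and p-values then measure only the spread between these arrays.

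Retinol travels in blood bound to retinol-binding protein, which hepatocytes make, and enters some cells through a membrane receptor. Inside cells it is either esterified for storage, in liver mainly in stellate cells, or oxidised first to retinal and then to retinoic acid, which acts through nuclear receptors. RDH10 carries out the first oxidation, RDH11 is a microsomal retinal reductase and retinol dehydrogenase, RBP4 is the plasma carrier, STRA6 its receptor, LRAT the esterifying enzyme, and the ALDH1A enzymes oxidise retinal to retinoic acid.

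Promoter sequence is shown for RBP4 and ALDH1A1, a member that was higher in HUH7 than in PLC/PRF/5 and one that was lower. Each line gives the 250 bases upstream of a RefSeq transcription start on GRCh38.p14, 5′ to 3′ on the gene's strand. The RBP4 window is chr10:93601236-93601485 and the ALDH1A1 window chr9:72953054-72953303, both on the minus strand, and the build behind the array probes is not given in the sources used here. Capitals mark the letters TATAAA, or AGGTCA, the half-site of many nuclear receptors, on either strand (TTTATA and TGACCT reversed).
RBP4 promoter: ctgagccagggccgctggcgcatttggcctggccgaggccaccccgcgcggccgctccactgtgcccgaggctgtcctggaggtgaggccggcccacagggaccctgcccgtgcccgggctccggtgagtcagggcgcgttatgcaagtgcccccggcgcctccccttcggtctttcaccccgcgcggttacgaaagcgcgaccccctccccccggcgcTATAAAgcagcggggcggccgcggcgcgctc
ALDH1A1 promoter: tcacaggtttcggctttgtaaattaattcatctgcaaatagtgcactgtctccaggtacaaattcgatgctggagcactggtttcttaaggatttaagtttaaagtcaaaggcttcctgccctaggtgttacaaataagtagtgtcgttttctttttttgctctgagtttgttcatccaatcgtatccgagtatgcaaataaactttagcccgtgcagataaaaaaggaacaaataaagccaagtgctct
The RBP4 window holds 1 match to TATAAA and none to AGGTCA, and the ALDH1A1 window holds neither. Among the 14 windows of 7 members in the RefSeq table that were read, 3 hold TATAAA and 2 hold AGGTCA. Member windows on 1 chromosome were left out beforehand, and RDH10 has no window among those read. RBP4, STRA6 and ALDH1A2 have more than 1. Of the RBP4 windows not shown, 1 holds 2 matches to TATAAA and 1 holds none. Over all 35116 promoter windows of the same length, 10.7% hold TATAAA and 12.1% hold AGGTCA. A match is a description of letters, not a bound site.

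Checks of the libraries gave the following. APOB was lower than mock by 1.69 to 2.51 on the log2 scale with the 4 APOB-Hs siRNAs in HUH7. With Apob-Mm2 it differed by -0.81 in HUH7 (adjusted p = 0.14) and -1.82 in PLC/PRF/5 (0.10, limma), and neither passed. RAD18 had a log2 difference of -1.98 with its siRNA in HUH7 and -3.25 in PLC/PRF/5. Of the hepatocyte markers, 10 of 10 lay above the median gene in HUH7, 8 of 10 in PLC/PRF/5, 3 of 9 in Hepa1-6 and 8 of 9 in liver. There were 3 arrays with residuals over 1.5 times as wide as the median array of their line, HUH7 APOB-Hs1 at 12 h and PLC/PRF/5 APOB-Hs2 and APOB-Hs4 at 48 h. LRAT, ALDH1A2 and ALDH1A3 in both human lines, Lrat in Hepa1-6 and Aldh1a2 and Aldh1a3 in both mouse systems lay below the 25th percentile of genes of their system.

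RDH10 was lowest with Apob-Mm2 at every time in both human lines. Its log2 intensities with Apob-Mm2 in HUH7 were 8.16, 7.28, 7.04 and 6.97 at 6, 12, 24 and 48 h, against 8.59, 8.68, 8.78 and 9.07 with mock. In PLC/PRF/5 they were 8.30, 6.91 and 6.25 with Apob-Mm2 at 6, 12 and 48 h, against 9.48, 9.50 and 9.31 with mock. The distance from mock widened with time in both lines, to 23.2% of the same-time mock intensity at 48 h in HUH7 and 12.0% in PLC/PRF/5. At 6 h the share was 74.4% in HUH7 and 44.1% in PLC/PRF/5.

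**Figure D1:**
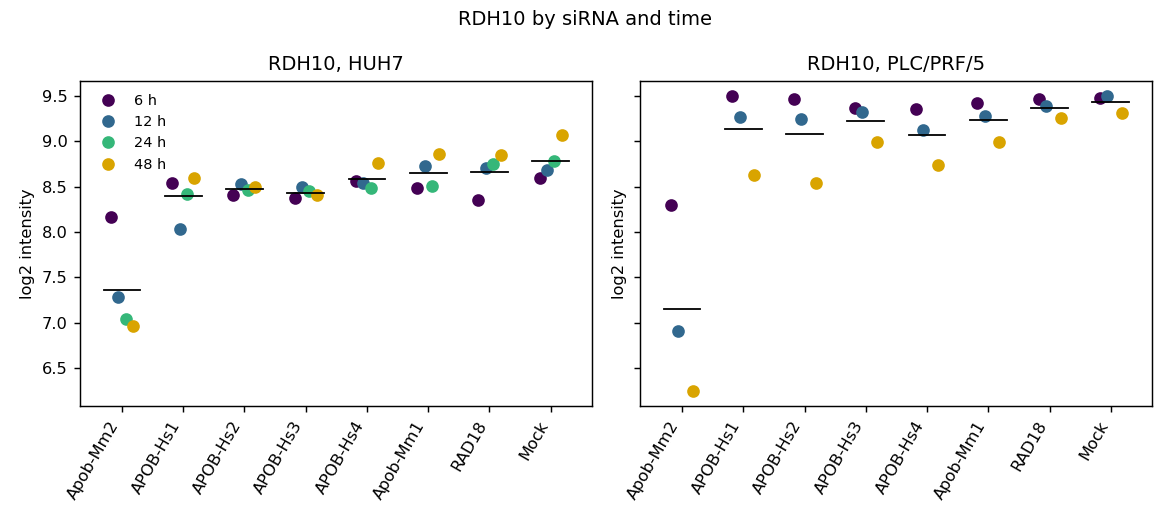
Log2 intensity of RDH10 (y axis) by siRNA and mock (x axis) in HUH7 (left) and PLC/PRF/5 (right). Each point is 1 array, coloured by hours after transfection, and the bar is the mean over times. The Apob-Mm2 arrays descend with time to 6.97 in HUH7 and 6.25 in PLC/PRF/5.

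Averaged over times, RDH10 with Apob-Mm2 differed from mock by -1.42 on the log2 scale in HUH7 (SE 0.169, 4 arrays each), which is 37.4% of the mock intensity. The difference in PLC/PRF/5 was -2.28 (SE 0.232, 3 arrays each), or 20.6% of mock. The other 2 RDH10 probe sets gave -1.39 and -1.41 in HUH7, and in PLC/PRF/5 they gave -2.21 and -2.17. Over times shared by both lines the response was 0.97 smaller in size in HUH7 than in PLC/PRF/5 (SE 0.335, no test). Without Apob-Mm2, RDH10 ranged from 8.03 to 9.07 over the other 28 HUH7 arrays and from 8.54 to 9.50 over the other 21 PLC/PRF/5 arrays. The Apob-Mm2 arrays after 6 h thus lay below every other array of their line, as did the 6 h array of PLC/PRF/5, while the 6 h array of HUH7 lay inside the range.

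Averaged over times, RDH11 also lay below mock with Apob-Mm2, by less than RDH10, and the other 6 members were within 0.13 of mock. RDH11 was at 10.91, 10.71, 10.69 and 10.68 with Apob-Mm2 in HUH7, against 10.72, 10.85, 10.82 and 11.05 with mock, a log2 difference of -0.11. In PLC/PRF/5 it was at 11.04, 10.75 and 10.55 with Apob-Mm2, against 11.07, 11.14 and 11.20 with mock, a difference of -0.36. RDH11 was therefore below mock in 3 of 4 HUH7 arrays and in 3 of 3 PLC/PRF/5 arrays, and at 48 h in PLC/PRF/5 it stood at 63.7% of the mock intensity. Its second probe set gave -0.22 in HUH7 and -0.47 in PLC/PRF/5, with 54.8% of mock at 48 h in PLC/PRF/5. RBP4 differed by -0.05 in HUH7 and -0.13 in PLC/PRF/5, and ALDH1A1 by -0.03 and -0.12 in the same order of lines. STRA6, LRAT, ALDH1A2 and ALDH1A3 gave differences between -0.12 and 0.06 over both lines. Single Apob-Mm2 arrays of these 6 members ranged wider against the same-time mock, from -0.48 (LRAT) to 0.29 (STRA6), both in HUH7. In PLC/PRF/5 the lowest array was at -0.41 for ALDH1A2, -0.32 for RBP4 and -0.31 for ALDH1A1. For reading these values, 1.29% of all genes passed an adjusted p under 0.05 (limma, Benjamini-Hochberg) with Apob-Mm2 in HUH7 and 0.135% in PLC/PRF/5.

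The 5 genes most like RDH10 were ranked by Pearson r over the 56 human arrays after each line and time was centred, among 8131 genes brighter than the median gene in both lines. They were SMC6 (r = 0.972), a subunit of a chromosome maintenance complex, XPO5 (0.953), the exporter of microRNA precursors, MAPK6 (0.935), an atypical MAP kinase, COL5A2 (0.917), a collagen chain, and PTK2 (0.911), the focal adhesion kinase. The ranking held the Apob-Mm2 arrays on which RDH10 was selected, so low values of these genes there follow largely from the ranking. All 5 were lower than mock with Apob-Mm2, with XPO5 at -1.26 in HUH7 and -1.80 in PLC/PRF/5 and SMC6 at -0.95 and -1.47. Without the Apob-Mm2 arrays the r over the other 49 arrays was 0.666 for SMC6, 0.124 for XPO5, 0.233 for MAPK6, 0.00729 for COL5A2 and 0.327 for PTK2. The arrays share siRNA, line and time, so these values describe the set. Among the members, RDH11 had r = 0.437 with RDH10, which was 0.0992 without the Apob-Mm2 arrays.

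With the 6 other siRNAs, RDH10 was mostly a little below mock. It was below the same-time mock in 22 of 24 HUH7 arrays and 17 of 18 PLC/PRF/5 arrays, and all siRNAs of a line share its mock arrays. RDH10 was selected against those same mock arrays. Its counts and tests against mock therefore depend on that selection, with or without the Apob-Mm2 arrays. Its fitted log2 differences from mock ran from -0.38 to -0.12 in HUH7 and from -0.36 to -0.07 in PLC/PRF/5. The second RDH10 probe set ran from -0.47 to -0.14 in HUH7 and from -0.54 to -0.05 in PLC/PRF/5. The third ran from -0.28 to -0.04 in HUH7. In PLC/PRF/5 it ran from -0.25 to 0.20, its highest with RAD18 siRNA. In the fit of all arrays none passed, with a lowest adjusted p of 0.314 in HUH7 and 0.643 in PLC/PRF/5 (limma), but that fit takes part of its spread from the descending Apob-Mm2 arrays. With those arrays left out, the SE in HUH7 was 0.0983 in place of 0.169, and RDH10 passed with APOB-Hs1 in HUH7, at -0.38 (adjusted p = 0.0329). It was at 8.54, 8.03, 8.42 and 8.60 with APOB-Hs1 at 6, 12, 24 and 48 h, against 8.59, 8.68, 8.78 and 9.07 with mock. All 4 APOB-Hs1 arrays were below the same-time mock, and the 48 h array overlapped the 6 h mock. That call was lost without the wide array at 12 h (-0.26, adjusted p = 0.108) and without all arrays at 12 h (0.163), 24 h (0.28) or 48 h (0.234). APOB-Hs3 gave -0.35 in HUH7 (adjusted p = 0.0633), which did not pass, and in PLC/PRF/5 the lowest adjusted p was 0.341. The 6 siRNAs overlapped each other, with RAD18 siRNA at 8.35, 8.70, 8.75 and 8.85 in HUH7.

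RDH11 was called with APOB-Hs1 in HUH7 in the fit of all arrays and without the Apob-Mm2 arrays (adjusted p = 0.0287). It was at 10.68, 10.35, 10.46 and 10.68 with APOB-Hs1 at 6, 12, 24 and 48 h, against 10.72, 10.85, 10.82 and 11.05 with mock. All 4 APOB-Hs1 arrays were below the same-time mock, by 0.04 at the least and 0.50 at the most, and none reached the lowest mock array. The log2 difference was -0.32 (SE 0.0842, adjusted p = 0.0368, limma), and the second RDH11 probe set gave -0.32 (adjusted p = 0.0122). Without the wide APOB-Hs1 array at 12 h the call was lost, at -0.25 (adjusted p = 0.131), as it was without all arrays at 12 h (0.275), 24 h (0.326) or 48 h (0.245). With APOB-Hs1, 2.53% of all genes passed in HUH7.

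RAD18 siRNA gave RDH11 values of 10.60, 10.66, 10.35 and 10.60 in HUH7, against the same mock arrays, and all 4 were lower than the same-time mock. The difference was -0.30 (SE 0.0842, adjusted p = 0.094), which did not pass, while the second probe set tested on its own gave -0.44 (adjusted p = 8e-04). In PLC/PRF/5 RDH11 was at 10.96, 10.94 and 10.93 with RAD18 siRNA, against 11.07, 11.14 and 11.20 with mock. The difference there was -0.19 and did not pass (adjusted p = 0.905, limma). With APOB-Hs1, PLC/PRF/5 had RDH11 at 11.04, 10.96 and 10.76, also below mock at every time and not called.

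**Figure D2:**
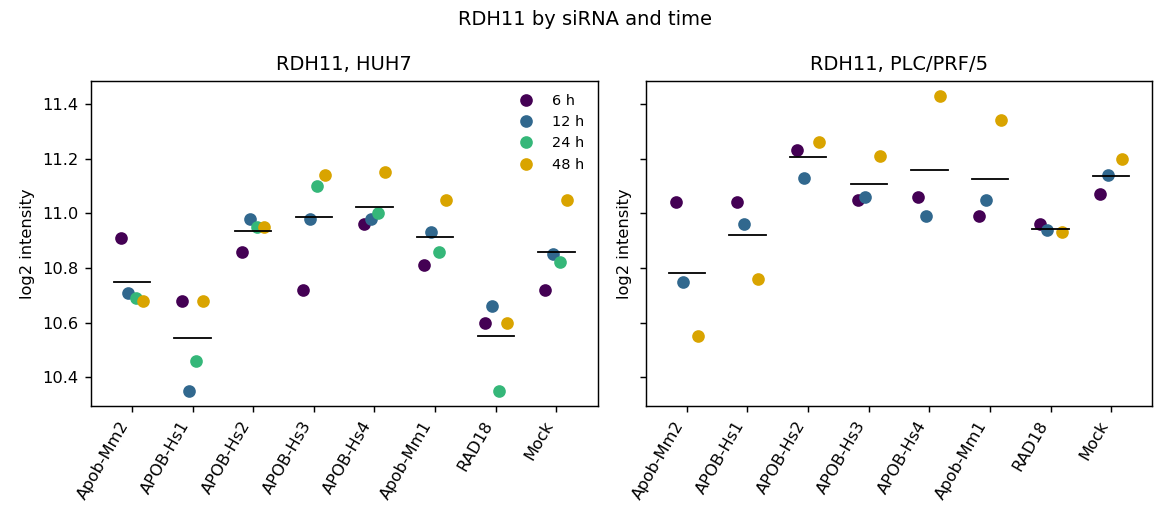
Log2 intensity of RDH11 (y axis) by siRNA and mock (x axis) in HUH7 (left) and PLC/PRF/5 (right). Points are arrays coloured by hours after transfection and bars are means over times. In HUH7 the APOB-Hs1 and RAD18 arrays, from 10.35 to 10.68, lie below the mock arrays, from 10.72 to 11.05.

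Over the 6 siRNAs, 1 of 48 tests of members passed in HUH7 and it was lower, where 1.61% of all gene tests passed. Without the Apob-Mm2 arrays 2 of 48 passed, both lower, beside 1.69%, and 1 of them was RDH10, whose selection used the mock arrays. In PLC/PRF/5, 0 of 48 passed with limma and 1 had an unadjusted p under 0.05, beside 0.282% of all gene tests. Without the Apob-Mm2 arrays 0 of 48 passed there, 5 of them at an unadjusted p under 0.05, beside 0.247%. The median difference of the members was -0.0352 in HUH7 and -0.0394 in PLC/PRF/5, beside 0.00436 and 0.0112 over all genes in the same order of lines. RBP4 lay between -0.17 and -0.01 in HUH7, and ALDH1A1 between -0.05 and 0.17, its highest value being with APOB-Hs4 (adjusted p = 0.095). When the responses of HUH7 were set against those of PLC/PRF/5, 0 of 48 tests of members passed with limma, 0 of them at an unadjusted p under 0.05, beside 0.00374% of all gene tests. These shares are near those of all genes and are no result about the members.

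The wider list of retinoid genes held 52 human genes. Over all genes, 1.61% of tests with the 6 siRNAs passed in HUH7 and 0.282% in PLC/PRF/5. In the list, 0 of 312 tests passed in PLC/PRF/5 with limma (20 at an unadjusted p under 0.05). In HUH7, 4 of 312 passed, all lower, which is near the share of all genes and no result about the list. They were RDH14, a retinol dehydrogenase of the RDH11 family, at -0.64 with APOB-Hs1 (adjusted p = 0.000218), AKR1B10, a retinal reductase, at -0.50 with APOB-Hs2 (0.0323), TGM2, a transglutaminase induced by retinoic acid, at -0.50 with APOB-Hs4 (0.0448), and CYP26B1, which breaks down retinoic acid, at -0.39 with RAD18 siRNA (0.0135). Without the wide APOB-Hs1 array all 4 passed, with RDH14 at -0.49 (adjusted p = 0.000983). With Apob-Mm2, 1 of the 52 genes passed in HUH7, AKR1B10 at -0.70 (adjusted p = 0.0041), and 0 of 52 in PLC/PRF/5 (limma). Over all genes 1.29% passed with Apob-Mm2 in HUH7 and 0.135% in PLC/PRF/5.

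Over culture time RDH10 moved differently in the 2 human lines. With Apob-Mm2 left out, its level at 48 h minus 6 h was 0.25 in HUH7 (adjusted p = 0.0294) and -0.51 in PLC/PRF/5 (adjusted p = 3.18e-05), from limma over 42 arrays at the shared times. Fitted with the Apob-Mm2 arrays and 24 h, RDH10 in HUH7 changed by 0.07 and did not pass (adjusted p = 0.74). The difference between the lines was 0.76 (SE 0.118, adjusted p = 4.76e-05), and 10.2% of all genes passed that test. Mock RDH10 was at 9.07 at 48 h and 8.59 at 6 h in HUH7, and at 9.31 at 48 h and 9.48 at 6 h in PLC/PRF/5. Both wide arrays of PLC/PRF/5 were 48 h arrays. Without the 3 wide arrays the difference was 0.68 (adjusted p = 4.2e-05). No other member passed in the difference between the lines, with RBP4 next at 0.33 (adjusted p = 0.0595).

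With all treatments in the fit, 2 of 8 members changed in HUH7 between 6 and 48 h, where 29.5% of all genes passed. RBP4 fell by 0.13 (adjusted p = 0.0184) and ALDH1A1 fell by 0.11 (adjusted p = 0.0215, limma), on average over treatments. Without the 24 h arrays neither passed (0.0522 for RBP4 and 0.0674 for ALDH1A1). ALDH1A1 in HUH7 ran from 12.82 to 13.30 at 48 h, its highest with APOB-Hs4, against 13.06 to 13.22 at 6 h. Without the Apob-Mm2 arrays 3 of 8 passed, beside 28.1% of all genes. They were RBP4 (-0.13, adjusted p = 0.0425), RDH10 (0.25, 0.0137) and RDH11 (0.18, 0.0273), while ALDH1A1 did not pass (0.0542). In PLC/PRF/5, 3 of 8 passed without the Apob-Mm2 arrays, beside 15.8% of all genes. RDH10 fell by 0.51 without the Apob-Mm2 arrays (adjusted p = 0.000268, limma), and its difference of -0.71 with them holds the arrays it was selected on and is a description. In the fit of all arrays RBP4 fell by 0.46 (0.000703) and ALDH1A1 fell by 0.25 (0.00281), on average over treatments. ALDH1A1 in PLC/PRF/5 ran from 13.18 to 13.67 at 48 h, its highest with APOB-Hs4, against 13.59 to 13.63 at 6 h. RBP4 in PLC/PRF/5 had its 2 lowest arrays at 48 h, 7.71 with APOB-Hs3 and 7.98 with APOB-Hs2, against 8.61 with mock at that time. Its second probe set, at 4.69 to 5.15 in PLC/PRF/5, changed by -0.09 over the same interval and did not pass (adjusted p = 0.428).

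In Hepa1-6, Rdh11 rose and Rdh10 and Aldh1a1 fell between 6 and 48 h, 3 of 8 members, beside 17.2% of all genes. Rdh11 was at 9.21, 9.25, 9.14 and 9.13 at 48 h (in the order APOB-Hs1, APOB-Hs3, APOB-Hs4, then mock), against 8.15, 8.10, 8.18 and 8.13 at 6 h. The 48 h arrays were all above the 6 h arrays, by 1.04 on average (SE 0.0668, adjusted p = 1.46e-07, limma), and the second probe set gave 1.26. Rdh10 fell by 0.62 (SE 0.0929, adjusted p = 0.000297) and Aldh1a1 fell by 0.30 (adjusted p = 0.0205), on average over treatments. Aldh1a1 ran from 12.08 to 12.69 at 48 h, its lowest with APOB-Hs3, against 12.66 to 12.73 at 6 h.

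**Figure D3:**
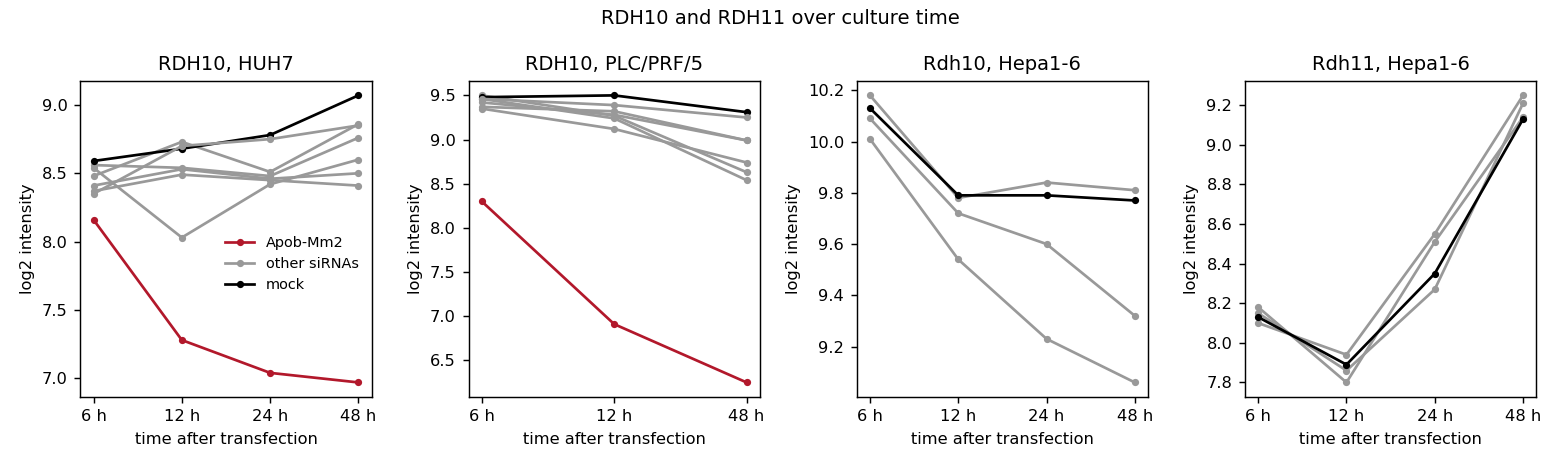
Log2 intensity (y axis) over hours after transfection (x axis, equal steps per sampled time) of RDH10 in HUH7 and PLC/PRF/5 and of Rdh10 and Rdh11 in Hepa1-6. Each line is a treatment, red for Apob-Mm2, grey for other siRNAs and black for mock. Mouse Rdh11 reached 9.13 to 9.25 at 48 h in all 4 treatments.

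In the wider list, 13 of 52 genes changed over time in HUH7 (7 higher at 48 h), 6 of 52 in PLC/PRF/5 (4 higher) and 13 of 45 in Hepa1-6 (6 higher), beside 29.5%, 18.7% and 17.2% of all genes in that order of lines. In HUH7 the smallest adjusted p went to RARB, a retinoic acid receptor that is itself induced by retinoic acid, at 0.48, RXRA, a retinoid X receptor, at 0.36, CYP26B1 at 0.38, and PNPLA3, a lipase that can act on retinyl esters, at 0.57. Of the 8 retinoic acid responsive genes listed, 1 was higher at 48 h in HUH7 and 3 were lower. In PLC/PRF/5 RARB was at 0.50, RETSAT, a retinol saturase, at -0.32, ADH1C, an alcohol dehydrogenase, at 0.52, and RDH5, a retinol dehydrogenase, at 0.18. In Hepa1-6 Dhrs3, a retinal reductase, was at 2.83, Lpl, lipoprotein lipase, at 0.70, Tgm2 at -0.44, and Adh7, an alcohol dehydrogenase, at -0.49.

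Between the mock-transfected lines, RBP4 was the member with the widest difference. Mock HUH7 arrays had RBP4 at 12.93, 12.87 and 12.92 at 6, 12 and 48 h, against 8.72, 8.80 and 8.61 in mock PLC/PRF/5. The lines did not overlap, and RBP4 was 18.4-fold higher in HUH7, a log2 difference of 4.20 (SE 0.0861, adjusted p = 1.1e-08, limma). Its second probe set gave 2.58. The hepatocyte markers summed to 16.19 to 16.47 on the log2 scale over HUH7 arrays and 14.43 to 15.26 over PLC/PRF/5 arrays, and their part in the RBP4 difference was not tested.

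Of the 8 members, 7 passed between the mock arrays of HUH7 and PLC/PRF/5, 1 higher and 6 lower in HUH7, where 59.5% of all genes passed. RDH10 was at 8.59, 8.68 and 9.07 in HUH7, against 9.48, 9.50 and 9.31 in PLC/PRF/5, with no overlap and a difference of -0.65 (SE 0.133, adjusted p = 0.00349). ALDH1A1 was lower in HUH7 by 0.55 (adjusted p = 0.000495). RDH11 was lower by 0.27 (adjusted p = 0.0257), STRA6 by 0.31 (0.0418), ALDH1A2 by 0.28 (0.0493) and ALDH1A3 by 0.31 (0.0101), the last 2 near the low end of the array. The second RDH11 probe set gave -0.12 and did not pass (adjusted p = 0.276, limma). LRAT differed by -0.12 and did not pass (adjusted p = 0.256). RDH11, STRA6 and ALDH1A2 no longer passed without the 6 h pair (0.153, 0.221 and 0.0625) or without the 12 h pair (0.0889, 0.178 and 0.0643), and ALDH1A2 also without the 48 h pair (0.267). With quantile normalization STRA6 (0.0911) and ALDH1A2 (0.0572) did not pass, nor did RDH11 with the mean of its probe sets (0.0597) or ALDH1A2 with a trended robust prior (0.0535).

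**Figure D4:**
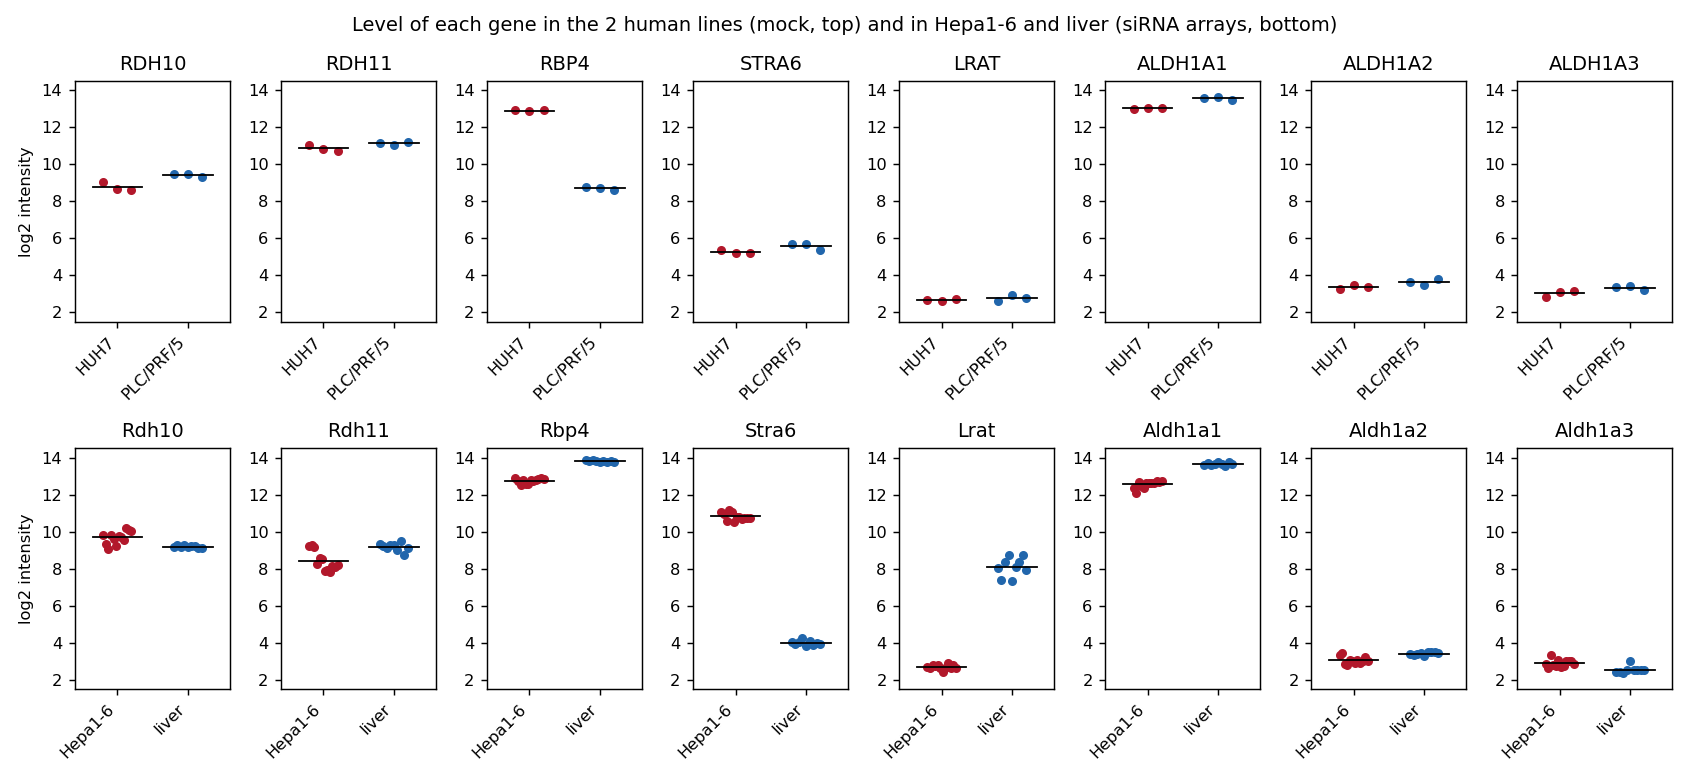
Log2 intensity (y axis) of each member in mock HUH7 and PLC/PRF/5 arrays at the shared times (top) and in Hepa1-6 and liver arrays with the 3 shared siRNAs (bottom). Points are arrays and bars are means, and levels are comparable only within a panel. RBP4 in the human lines, and Stra6 and Lrat in the mouse systems, show the widest gaps.

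In the wider list, 32 of 52 genes passed between the lines, 16 higher and 16 lower in HUH7, beside 59.5% of all genes. TTR, the plasma partner of retinol-binding protein, was higher in HUH7 by 5.06. CYP26B1 was higher by at least 4.80 and RBP5, a cellular retinol-binding protein, by at least 2.58, since both were below the 25th percentile of genes in PLC/PRF/5 (3.39 and 3.85). CYP2S1, a cytochrome able to oxidise retinoic acid, was lower by 5.75.

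Between Hepa1-6 and liver under the same 3 siRNAs, Stra6 was higher and Lrat lower in the cell line, both far beyond the spread of arrays. Stra6 had log2 intensities between 10.52 and 11.15 in Hepa1-6, mean 10.81, against 3.83 to 4.23 in liver, mean 3.99. The difference was 6.82 (SE 0.0656, adjusted p = 3.02e-30, limma), a 113-fold higher intensity in Hepa1-6. Stra6 in liver was dim, near the 25th percentile of genes there (3.43), so this fold may be a lower limit. Lrat was between 2.43 and 2.92 in Hepa1-6, mean 2.68, against 7.31 to 8.73 in liver, mean 8.09. The difference was -5.41 (SE 0.135, adjusted p = 8.14e-22). Lrat in Hepa1-6 was near the 5th percentile of genes (2.63), so its level there has only an upper limit and was at least 42.5-fold lower than in liver. Line, culture, dose and time all differ between these systems and cannot be told apart. In liver, fewer cells of a type and less RNA per cell cannot be told apart either.

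Stellate cell markers were measured beside Lrat. In liver 10 of 11 lay above the median gene, among them Reln at 10.72 and Colec11 at 8.54, and in Hepa1-6 4 of 11 did, with Reln at 3.91 and Colec11 at 4.91. Dcn was high in both, at 13.90 in Hepa1-6 and 12.22 in liver, so the summed markers were not lower in Hepa1-6 (13.93 to 14.08, against 13.01 to 13.50 in liver). The part of these cells in the Lrat values was not tested. Lrat was the member with the widest spread among livers, with an SD of 0.508 over 9. The livers with the lowest Lrat, 7.31 and 7.40, also had the lowest summed stellate markers, 13.02 and 13.01. That order did not hold further up. The next lowest Lrat, 7.90, had markers at 13.41, above 13.23 and 13.35 in livers with Lrat at 8.08 and 8.34.

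All 8 members passed between Hepa1-6 and liver, 3 higher and 5 lower in Hepa1-6, beside 83.5% of all genes. The median of all genes was 0.23 higher in Hepa1-6 as deposited and 0.08 higher after quantile normalization. Rbp4 was lower by 1.06 and Aldh1a1 by 1.12, and Rdh11 by 0.76. Rdh11 was not lower when only the 48 h Hepa1-6 arrays were used (0.02, adjusted p = 0.883, limma). Rdh10 was higher by 0.49 (SE 0.101, adjusted p = 9.41e-05), but with quantile normalization it turned to -0.10, and with 48 h Hepa1-6 arrays only it was 0.21 and did not pass (adjusted p = 0.0817). The second Rdh10 probe set was dim, at 3.16 to 3.95 in Hepa1-6 and 3.62 to 4.26 in liver, near the 25th percentile of genes. It gave -0.48 (adjusted p = 2.44e-05, limma), and the mean of both probe sets gave 0.01. Aldh1a2 was lower by 0.36, or -0.20 with the 48 h arrays only (adjusted p = 0.0921), and Aldh1a3 higher by 0.36, both near the low end of the array. In the wider list 39 of 45 passed, 12 higher and 27 lower, beside the same 83.5%. Ttr, Aldh8a1, a retinal dehydrogenase, and Adh1, an alcohol dehydrogenase that acts on retinol, were at 3.09, 2.78 and 3.49 in Hepa1-6, below its 25th percentile of genes (3.51). Against liver their log2 differences were -8.88, -9.65 and -10.65 and are lower limits in size. Rarres2, a retinoic acid responsive gene that encodes chemerin, differed by -7.76.

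Rdh10 in Hepa1-6 was the only member called with an siRNA there. With APOB-Hs4 it was at 10.01, 9.54, 9.23 and 9.06 at 6, 12, 24 and 48 h, against 10.13, 9.79, 9.79 and 9.77 with mock. All 4 arrays were below the same-time mock, by 0.12 at the least and 0.71 at the most. The difference was -0.41 (SE 0.0929, adjusted p = 0.0461, limma), and 1.19% of all genes passed with APOB-Hs4. The call was lost without the 12 h (adjusted p = 0.167), 24 h (0.387) or 48 h arrays (0.246). The second probe set, dim at 3.17 to 3.62 with APOB-Hs4, gave -0.14 and did not pass (adjusted p = 0.595, limma). Between 6 and 48 h the same probe set changed by -0.39 and passed (adjusted p = 0.0131). The mean of both probe sets gave -0.27 and did not pass (adjusted p = 0.125). APOB-Hs3 gave Rdh10 at 10.09, 9.72, 9.60 and 9.32, also below mock at every time, with a difference of -0.19 that did not pass (adjusted p = 0.577). Stra6 with APOB-Hs4 differed by -0.29 (adjusted p = 0.171), being 10.75, 10.69, 10.52 and 10.57, against 10.77, 10.79, 11.04 and 11.10 with mock.

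**Figure D5:**
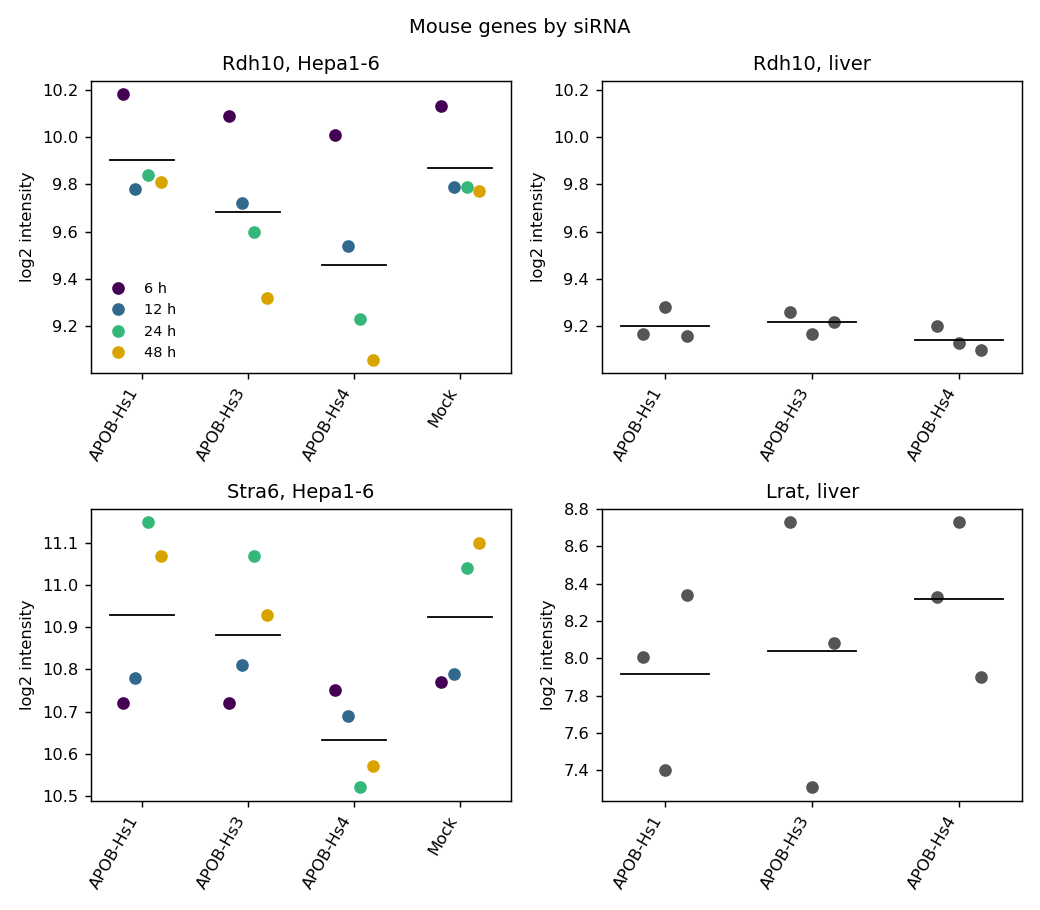
Log2 intensity (y axis) by siRNA (x axis) of Rdh10 in Hepa1-6 and liver (top) and of Stra6 in Hepa1-6 and Lrat in liver (bottom). Points are arrays, coloured by hours in Hepa1-6 and grey in liver, and bars are means. Rdh10 with APOB-Hs4 reached 9.06 at 48 h in Hepa1-6, and the liver groups overlap.

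Of 24 tests of members with siRNAs in Hepa1-6, 1 passed, lower, beside 0.847% of all gene tests. In the liver 0 of 24 passed with limma, 1 of them at an unadjusted p under 0.05, beside 0.185% of all gene tests. Liver Rdh10 was at 9.20, 9.13 and 9.10 with APOB-Hs4, against 9.17, 9.28 and 9.16 with APOB-Hs1 and 9.26, 9.17 and 9.22 with APOB-Hs3. Those groups overlap, and the difference of APOB-Hs4 from the other siRNAs was -0.07 (adjusted p = 0.839, limma). Livers were compared with the mean of the other 2 siRNAs. Among the 45 genes of the wider list, 0 of 135 tests passed in Hepa1-6 and 0 of 135 in liver with limma (18 in Hepa1-6 and 13 in liver at an unadjusted p under 0.05).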

How the data were processed

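Each deposited value is an intensity per probe set, which the authors obtained with RMA, a background-correcting and normalizing summary of probes, per the submitters' processing notes. Its version, the set of arrays it was run on together and the probes' build were not stated there or in the labels. Log2 was taken here. Of 43483 human probe sets 25919 carried 1 gene symbol and 17564 none, and of 43681 mouse probe sets 30342 and 13339. Where a gene had several probe sets, the one brightest on average over all arrays of its design was used. Array medians ran from 31.75 to 35.39 (human) and 19.73 to 22.55 (mouse), and the number of arrays limits precision.

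Groups came from the labels. Limma 3.58.1 in R 4.3.3 was fitted to all named genes with treatment and time as factors in each line, treatment alone in liver, line and time for mock arrays, and system and treatment for Hepa1-6 against liver. Tests are two-sided, and a call needs a p under 0.05 after Benjamini-Hochberg adjustment over all genes of its contrast. The scripts were tested on simulated data. Same-numbered livers deviated together by r of -0.144 to 0.188, so the number was not used as a block. Alternatives were quantile normalization, other probe set rules, a filter on dim genes, a trended robust prior, each time or liver left out, and other siRNAs in place of mock.

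The members and lists were chosen with earlier results of these data known. Every member is named, with up to 4 genes of the wider list per comparison, smallest adjusted p first, and the 5 genes most like RDH10. Leaving out wide arrays or Apob-Mm2 arrays, testing each probe set alone and the time-by-line difference were chosen after seeing the data.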

Additional observations from a re-analysis of the deposited data

Results flagged for a closer look

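RDH10 changed differently over time in the human lines. Its 48 h minus 6 h change was 0.76 higher in HUH7 than in PLC/PRF/5 on the log2 scale (adjusted p = 4.76e-05, limma), with Apob-Mm2 left out.

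In 10 of 96 groups of 4 arrays (1 gene and treatment over the 4 times of a line, each time centred), 1 array stood apart from the other 3. Chance flags about 1 in 20 groups. ALDH1A3 was 4.82 with RAD18 siRNA at 6 h in HUH7, 1.59 above the mean of that time. RDH10 was 8.35 with RAD18 siRNA at 6 h and 8.03 with APOB-Hs1 at 12 h in HUH7, the second on the array with wide residuals. The mean of each time included the Apob-Mm2 array, on which RDH10 was selected. Both RDH10 flags in HUH7 depend on that centring, were not repeated without it and are a description. Mouse Rdh10 was 9.32 with APOB-Hs3 at 48 h in Hepa1-6. RBP4 in HUH7 was 12.42 with APOB-Hs3 and 12.77 with APOB-Hs2, both at 48 h. These lay -0.37 and only -0.03 from the mean of that time. LRAT in HUH7, at the low end of the array, was 2.90 with RAD18 siRNA at 24 h, 2.75 with APOB-Hs1 at 6 h, 2.67 with APOB-Hs2 at 48 h and 2.70 with APOB-Hs3 at 6 h. In that order these lay 0.28, 0.16, 0.08 and 0.12 above the mean of their time.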

How the results depend on the processing

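The counts of members called kept within 1.5 times of the main count in 82 of 104 repeats, and single members kept their direction and call or value in 258 of 291. In HUH7 the 1 call over 6 siRNAs became 2 with quantile normalization, 2 with the mean of all probe sets, 3 without dim genes, 3 with the trended robust prior, 4 with other siRNAs in place of mock, 0 without the wide array, 2 without the Apob-Mm2 arrays and 0 to 3 when a time was left out. The 2 members called over time in HUH7 became 0 to 2 when a time was left out. In Hepa1-6 the 1 call became 0 with the mean of all probe sets, 2 with other siRNAs in place of mock, and 0 to 1 when a time was left out. The 7 members called between mock lines became 4 without dim genes, which are then not tested, and 4 to 6 when a time was left out. The 8 called between Hepa1-6 and liver became 5 without dim genes and 5 with 48 h Hepa1-6 arrays only. Rdh10 there turned to -0.10 with quantile normalization and Rdh11 to 0.02 with 48 h arrays only. The cause was not tested. The 0 of 24 calls in liver were 0 with a replicate block, a paired fit on the liver number. RDH10 with Apob-Mm2 ran from -1.75 to -1.17 in HUH7 and from -2.83 to -1.89 in PLC/PRF/5 over its alternatives.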
